A study of Mus musculus with 15 samples.

Results

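The regions described here are the autosomal segments of ACF1 chromatin immunoprecipitation sequencing in the nucleus accumbens of resilient mice, set against those of control mice. They were taken as the stretches given the state E2 in the deposited segmentation of each group on autosomes 1 to 19. The control list held 631 such segments and the resilient list 587, together 1218 of the 2598 E2 segments in the 3 deposited lists. A control and a resilient segment were called matched where they overlapped by at least 1 bp. All mice were C57BL/6. Resilient mice had met an aggressive CD1 mouse for 10 minutes a day on 10 days, in the chronic social defeat stress procedure, and were classed by a social interaction test. Susceptible mice, used below as a further list, went through the same sessions and were placed in the other behavioural class. Tissue was taken 48 hours after the last session, sheared, and precipitated with an antibody to ACF1. H3 libraries came from tissue digested with MNase, an enzyme that cuts between nucleosomes. Control mice carry only that label, and how they were housed or handled is not given in the sources used here. Punches of 10 mice were pooled for each replicate, so that no value belongs to a single animal. The labels tell of triplicates, but 1 list per group was analysed here, and how replicates went into it is not stated. No spread between replicates can be taken from them, and none of the differences below was tested or can be tested. The files give no read counts, so the depth is unknown. Nothing in them says whether E2 stands for bound chromatin; it is the minority state, and covered 0.0701% of the listed autosomes in controls and 0.0761% in resilient mice. Cell type markers cannot be checked in such lists.

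ACF1, the product of Baz1a, is the large accessory subunit of the ACF chromatin remodelling complex. Its partner SNF2H is the ATPase that slides nucleosomes along DNA, and ACF1 helps the enzyme to sense linker DNA and to set nucleosomes at even spacing. The complex is known for work in chromatin assembly, in heterochromatin and in repression of genes, and the nucleus accumbens is a forebrain region of reward and motivation.

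Promoters of 9 of the 26 genes whose start lay inside a segment are shown, chosen after their values were seen to set promoters with copies elsewhere beside promoters without. They do not stand for the segments at large, most of which cover no gene start. In the sequences, from RefSeq on GRCm38.p6, the 250 bases before the gene start are given on the gene's strand. Capitals mark bases inside a run of 100 bases or more that is also present, on either strand, in the promoter window of another gene; 100 bases is the read length of the study. The first 6 genes had their start covered in both lists and the next in controls only. The last 2 had it covered in resilient mice only.
Sp140 (GRCm38.p6, chr1:85600453-85600702, plus strand): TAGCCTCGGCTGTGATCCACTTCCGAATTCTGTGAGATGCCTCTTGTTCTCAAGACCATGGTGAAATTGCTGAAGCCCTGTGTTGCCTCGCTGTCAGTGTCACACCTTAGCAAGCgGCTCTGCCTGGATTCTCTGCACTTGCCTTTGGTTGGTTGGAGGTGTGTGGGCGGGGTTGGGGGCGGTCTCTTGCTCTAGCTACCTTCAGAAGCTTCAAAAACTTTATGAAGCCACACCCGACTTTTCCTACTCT
C130026I21Rik (GRCm38.p6, chr1:85270567-85270816, minus strand): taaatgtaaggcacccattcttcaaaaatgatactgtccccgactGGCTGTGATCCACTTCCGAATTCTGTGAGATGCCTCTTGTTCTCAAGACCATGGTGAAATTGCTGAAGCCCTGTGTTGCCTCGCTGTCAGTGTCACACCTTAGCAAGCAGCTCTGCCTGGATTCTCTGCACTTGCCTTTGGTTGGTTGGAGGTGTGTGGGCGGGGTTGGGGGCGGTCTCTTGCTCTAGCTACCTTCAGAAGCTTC
A530032D15Rik (GRCm38.p6, chr1:85109854-85110103, minus strand): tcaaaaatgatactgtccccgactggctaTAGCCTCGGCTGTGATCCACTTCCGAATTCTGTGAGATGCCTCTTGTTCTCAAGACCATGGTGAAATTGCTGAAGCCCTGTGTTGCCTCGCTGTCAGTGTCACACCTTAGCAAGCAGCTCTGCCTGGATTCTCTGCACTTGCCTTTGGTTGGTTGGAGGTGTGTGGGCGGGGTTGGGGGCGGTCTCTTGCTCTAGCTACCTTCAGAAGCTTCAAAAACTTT
Gm15319 (GRCm38.p6, chr8:20363203-20363452, minus strand): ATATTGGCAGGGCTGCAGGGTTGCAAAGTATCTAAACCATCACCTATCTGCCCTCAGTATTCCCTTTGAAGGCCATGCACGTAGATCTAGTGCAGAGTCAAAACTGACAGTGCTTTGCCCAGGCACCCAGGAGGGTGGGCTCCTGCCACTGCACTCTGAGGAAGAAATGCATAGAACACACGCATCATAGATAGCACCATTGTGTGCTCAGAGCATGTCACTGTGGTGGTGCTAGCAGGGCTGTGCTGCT
Gm21119 (GRCm38.p6, chr8:20614677-20614926, plus strand): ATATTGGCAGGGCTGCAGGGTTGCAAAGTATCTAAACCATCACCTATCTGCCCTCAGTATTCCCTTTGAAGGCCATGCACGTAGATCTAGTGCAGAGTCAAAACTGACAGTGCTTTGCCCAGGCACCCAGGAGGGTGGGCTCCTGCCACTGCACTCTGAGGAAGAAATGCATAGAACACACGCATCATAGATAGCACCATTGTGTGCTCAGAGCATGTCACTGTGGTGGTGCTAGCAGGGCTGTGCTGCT
Gm4981 (GRCm38.p6, chr10:58236661-58236910, minus strand): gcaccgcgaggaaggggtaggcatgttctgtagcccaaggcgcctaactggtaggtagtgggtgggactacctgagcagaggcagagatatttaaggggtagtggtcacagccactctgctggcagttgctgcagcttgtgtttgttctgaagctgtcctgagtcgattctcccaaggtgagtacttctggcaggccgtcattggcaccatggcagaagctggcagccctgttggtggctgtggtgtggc
Ikbke (GRCm38.p6, chr1:131279564-131279813, minus strand): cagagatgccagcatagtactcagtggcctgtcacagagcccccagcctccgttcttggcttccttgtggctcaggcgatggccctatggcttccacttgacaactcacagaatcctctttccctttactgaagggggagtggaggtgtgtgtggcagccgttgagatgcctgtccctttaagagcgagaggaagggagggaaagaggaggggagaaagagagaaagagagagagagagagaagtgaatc
4931408C20Rik (GRCm38.p6, chr1:26687461-26687710, minus strand): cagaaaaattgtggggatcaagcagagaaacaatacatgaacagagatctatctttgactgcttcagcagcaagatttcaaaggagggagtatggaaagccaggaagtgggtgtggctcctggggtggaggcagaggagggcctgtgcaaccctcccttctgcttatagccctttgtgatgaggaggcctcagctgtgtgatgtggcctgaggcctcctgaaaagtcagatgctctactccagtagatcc
Vmn2r37 (GRCm38.p6, chr7:9223654-9223903, minus strand): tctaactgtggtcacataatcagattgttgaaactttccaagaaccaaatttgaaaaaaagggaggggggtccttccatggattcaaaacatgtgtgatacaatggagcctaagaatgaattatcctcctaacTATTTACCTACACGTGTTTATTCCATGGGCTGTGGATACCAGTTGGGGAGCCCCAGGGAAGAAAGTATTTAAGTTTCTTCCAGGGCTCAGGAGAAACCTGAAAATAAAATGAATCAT

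Of the 250 bases, all but 1 were marked for Sp140, 205 for C130026I21Rik and 221 for A530032D15Rik, 3 genes of the Sp100 and Sp140 region of chromosome 1 that carry each other's promoter sequence. The promoters of Gm15319 and Gm21119 on chromosome 8 were the same at all 250 bases, and a further gene, 4930467E23Rik, shared a run with both. No base was marked for Gm4981, which lies in a segment with Dux, for Ikbke, which encodes a kinase of innate immune signalling, or for 4931408C20Rik. The vomeronasal receptor gene Vmn2r37 had 117 marked bases, shared with Vmn2r34 and Vmn2r45. Its strand was plus in mm9, where the segment lay, but minus for the printed promoter. Gm21119 came before Gm15319 along chromosome 8 in mm9 but after it in GRCm38.p6. Whether the printed bases of Vmn2r37 and Gm21119 are those at the start that the segment covered was not tested. Among the 27025 RefSeq genes with a promoter in the table, 15.7% had such a run in the window from 250 bases before to 50 after the start. A comparison of this share between classes of covered genes is void, because many covered genes had no promoter there. A promoter was present for 47 of the 69 genes covered in both lists. The same held for 26 of the 37 of the resilient list alone and 58 of the 73 of the control list alone. Such a run was found in 11, 4 and 11 of these, and in 783 of 6101 named autosomal genes with a promoter. Whether reads shared between such copies contributed to the segments was not tested.

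Resilient mice had fewer segments than controls but slightly more covered sequence. The 587 resilient segments covered 1880.6 kb and the 631 control segments 1733.4 kb, which makes 0.930 times the number and 1.08 times the length. The median width was 1000 bp in both lists. The upper quartile, by contrast, stood at 2600 bp for the resilient and 1400 bp for the control list, so the difference lay among the wider segments. Widths of 600 to 1200 bp made up 71.5% of the control and 64.2% of the resilient segments. At the other end, 32 control and 37 resilient segments reached 10 kb, and these few held 48.3% and 49.4% of the covered length.

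Most segments had no partner in the other list, but the shared ones held most of the covered length. Of the control segments, 253 (40.1%) overlapped a resilient segment, and of the resilient segments 254 (43.3%) overlapped a control segment. These matched segments held 75.3% of the control and 71.2% of the resilient covered length. Counted by base, 1070 kb were covered in both lists, 61.7% of the control and 56.9% of the resilient length. The smallest overlap of a matched pair was 400 bp, found in 2 pairs, on chromosomes 16 and 17. The closest segments that were not matched lay 1600 bp apart on chromosome 8, at 71997401 to 71999600 in controls and 72001201 to 72005600 in resilient mice (mm9, as all positions of segments given here). No pair lay between these values.

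Unmatched segments were narrow in both groups. The 378 unmatched control segments and the 333 unmatched resilient segments each had a median width of 800 bp, against 1200 bp for the matched segments of either list. Unmatched control segments were the more uniform, with 85.4% between 600 and 1200 bp against 74.2% of the unmatched resilient ones. Their median distance to the nearest segment of the other list was 1366 kb for control and 866 kb for resilient segments. More than 1 Mb lay between in 221 of the 378 control and 158 of the 333 resilient cases, and at most 10 kb in 15 and 25. In windows of 1 Mb, 468 held a control segment, 405 a resilient one and 227 both.

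**Figure D1:**
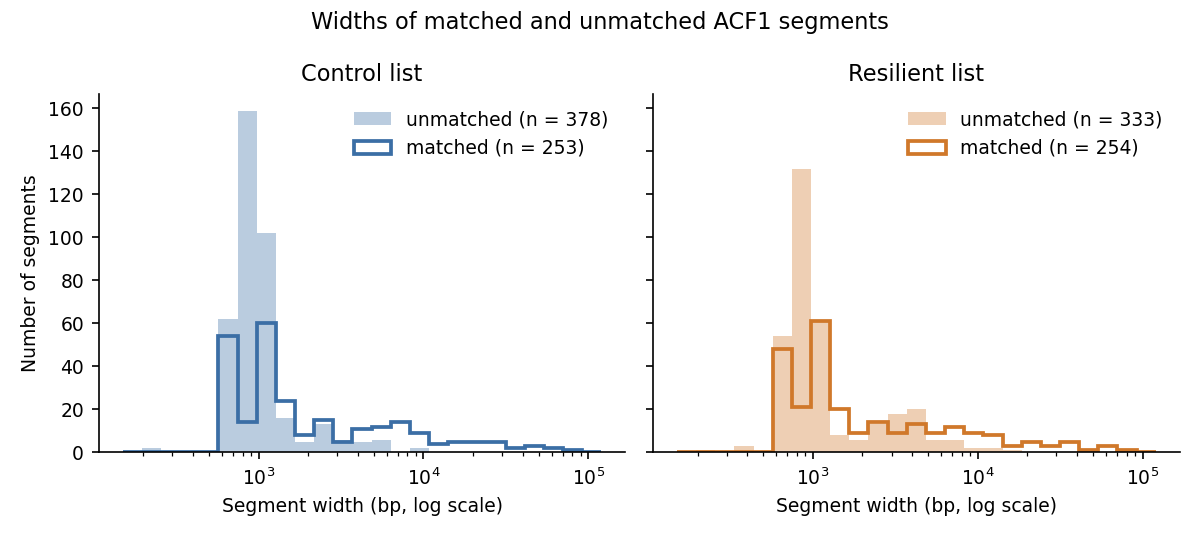
Histograms of segment width in bp on a log axis for the control list (left) and the resilient list (right); filled bars are unmatched segments and outlined bars matched ones. Unmatched segments pile up near 800 bp, while the matched ones reach 76000 bp in controls and 85600 bp in resilient mice.

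The list of susceptible mice, which the matching did not use, set matched and unmatched segments apart. It held 990 autosomal segments. Of the matched control segments, 232 (91.7%) overlapped a susceptible segment, as did 233 (91.7%) of the matched resilient ones. Among unmatched segments, the number was 57 (15.1%) in controls and 62 (18.6%) in resilient mice. A segment found in both lists was thus nearly always in the susceptible list as well, and a segment of one list alone seldom was. Width was not allowed for: matched segments were wider, and a wide segment more easily meets another under the 1 bp rule. Some of the widest unmatched segments, named below, did overlap a susceptible segment and others did not. Matched segments also lay more often in the first 5 Mb of a chromosome, the end at which mouse chromosomes carry the centromere. That stretch held 27 (10.7%) of the matched control segments and 11 (2.91%) of the unmatched ones, and 28 (11.0%) against 10 (3.00%) in resilient mice. The widest pair with identical bounds was of this kind. It spanned 39200 bp on chromosome 9 from 2999601 to 3038800 in both lists, with no gene named in the tables.

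Where segments matched, they usually matched 1 to 1. The overlaps formed 247 groups, of which 238 (96.4%) held 1 control and 1 resilient segment. In 110 of these 238 pairs (46.2%) both bounds were identical, to the 200 bp step of the files, and 76 of the 110 were 600 to 1200 bp wide. In 65 pairs the control segment was wider, in 61 the resilient one, and in 2 the width was the same at other bounds. Where widths differed, the median difference was 1200 bp.

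The largest difference in width within a pair was at Gm13242, a zinc finger gene of chromosome 4 now named Zfp980, where the control segment spanned 2400 bp and the resilient one 20200 bp, from 145269801 to 145290000. At Speer8-ps1, a pseudogene of a testis-expressed family on chromosome 5, the widths were 2800 bp and 16000 bp. The opposite order was found on chromosome 1, where a control segment of 21200 bp from 90115401 to 90136600 reached from the end of the Ugt1a genes, which encode glucuronidating enzymes, into Mroh2a. Its resilient match, 3800 bp from 90117201 to 90121000, touched neither. The Ugt1a genes themselves held more resilient sequence, through a separate unmatched segment of 3600 bp from 90106801 to 90110400, against 1177 bp in controls for 7 of the 8. On chromosome 17, with no named gene, a control segment of 14400 bp from 3024201 to 3038600 stood against a resilient one of 600 bp. At Abcg2, an efflux transporter gene of the blood-brain barrier on chromosome 6, the widths were 12200 bp in controls and 800 bp in resilient mice. At the noncoding gene 2700054A10Rik on chromosome 17 they were 13200 bp and 3000 bp.

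Splitting and joining of segments was confined to 9 groups of the 247 under the 1 bp rule. In all, 7 control segments overlapped more than 1 resilient segment, and 4 resilient segments overlapped more than 1 control segment. Of the 9 groups, 5 were whole in controls and split in resilient mice, 2 were split in controls and whole in resilient mice, and 2 had more than 1 segment in both. The largest difference in covered length was at Gm13251, a zinc finger gene now named Zfp992. A resilient segment of 62400 bp from 145699401 to 145761800 of chromosome 4 stood there against 4 control segments of 26000 bp in all. The susceptible list had 2 segments of 54800 bp in all at this place. At C130026I21Rik on chromosome 1, 2 control segments of 79200 bp stood against 2 resilient segments of 97200 bp, the wider of them 85600 bp, the widest segment of the resilient list.

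Sp110 and Sp140, genes of nuclear body proteins, lay in a single control segment of 76000 bp, the widest of that list. In resilient mice 2 segments of 64600 bp in all took its place, leaving all 26992 bp of Sp110 covered but 36323 bp of Sp140 in place of 44334 bp. A nearby control segment of 30200 bp from 87375201 to 87405400, with no named gene, had 2 resilient counterparts of 18800 bp in all. On chromosome 8, 1 control segment of 47400 bp over 2610005L07Rik and 6820431F20Rik was met by 2 resilient segments of 42600 bp in all. At Gm21119, farther up the same chromosome, 2 control segments of 25000 bp in all stood against 1 of 25200 bp, so that the covered length was nearly equal. The remaining groups were at 3231001 to 3267800 of chromosome 16 (17400 bp in controls, 25600 bp in resilient mice), at Gm13152 on chromosome 4 (11200 and 14400 bp) and at 126313401 to 126332600 of chromosome 5 (19200 and 15400 bp). Among wide 1 to 1 matches, some were close in width, such as 63800 and 62000 bp over Gm15319 and 54800 and 52400 bp over Sfi1, a centrosomal protein gene. Others were not, such as 25200 and 35000 bp over Gm13152 and 28800 and 18600 bp over Pisd-ps1, Pisd-ps3 and the end of Sfi1.

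**Figure D2:**
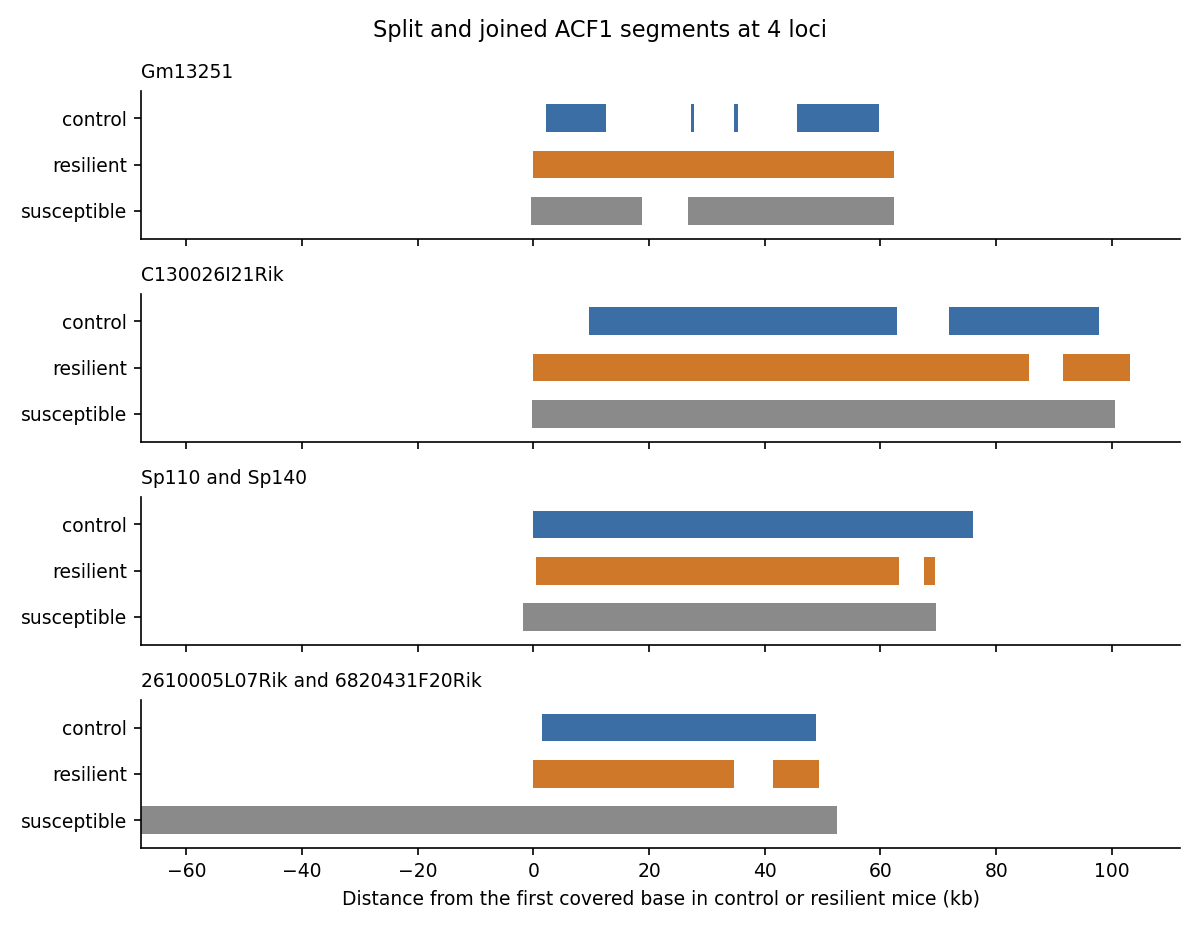
Extent of the segments at 4 loci, in kb from the first base covered in control or resilient mice; each bar is 1 segment, in blue for controls, orange for resilient and grey for susceptible mice. At Gm13251 the resilient bar runs unbroken over 62400 bp where controls have 4 bars, while Sp110 and Sp140 have 1 control bar and 2 resilient ones; the susceptible bar at the last locus is 120200 bp wide and starts at the left edge.

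One stretch of chromosome 4 held nearly all of the net difference in covered length. The autosomes differed by 147.2 kb in favour of resilient mice, and chromosome 4 alone by 132.4 kb, at 314.8 kb against 182.4 kb with 64 segments in each list. Without that chromosome the lists covered 1565.8 kb and 1551 kb, a ratio of 1.01. The stretch from 143 to 148 Mb, where a cluster of zinc finger genes lies, is the unbroken run of 1 Mb windows with a segment around the window with the largest difference, and was set after its values were seen. There, 33 resilient segments covered 274.8 kb and 31 control segments 139.2 kb. The median width was 3800 bp among the resilient and 1200 bp among the control segments. Of the control length in this stretch, 75.6% was also covered in resilient mice, whereas 38.3% of the resilient length was covered in controls. The susceptible list covered 384 kb in 44 segments at the same place.

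The difference was also seen in single genes of this stretch that held segments. Gm13152, now named Zfp982, held 59000 bp of control segments in 8 pieces and 81200 bp of resilient segments in 9 pieces, and 111200 bp in susceptible mice. Gm13251 held 4809 bp in controls and was covered over its whole 20411 bp in resilient and in susceptible mice. Gm13242 held 2540 bp in controls and 20200 bp in resilient mice, and Zfp600 20400 bp and 25600 bp. In each of these 4 zinc finger genes the resilient list covered more than the control list. How alike they are in sequence was not measured here, and overlapping or shared reads cannot be told apart in these files. Of the 13 genes of the list for this cluster, 8 had bounds in the tables and 2, Gm13152 and Gm13251, held a segment. Gm13242 and Zfp600 are not on that list.

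Number and length did not always go together on the other autosomes. Resilient mice had more segments on 7 of them, fewer on 10 and the same number on 1, and more covered length on 10 and less on 8. Chromosome 1 had 61 control and 50 resilient segments, covering 398 kb and 345 kb, and chromosome 8 had 42 and 31, covering 252 kb and 216.6 kb. Chromosome 5 showed the opposite, with 49 and 55 segments over 103.2 kb and 165.8 kb. The windows behind it were at 95 to 96 Mb (5.2 kb in controls, 36.6 kb in resilient mice), at 15 to 16 Mb (4.8 and 30.8 kb) and at 14 to 15 Mb (4.6 and 26 kb). On chromosome 1 the window from 87 to 88 Mb, with Sp110 and Sp140, held 124 kb and 90.2 kb. Chromosome 14 had the lowest matched share in both lists, 5 of 25 control and 5 of 22 resilient segments. The highest was on chromosome 16 for controls, with 18 of 29, and on chromosome 9 for resilient mice, with 12 of 20.

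**Figure D3:**
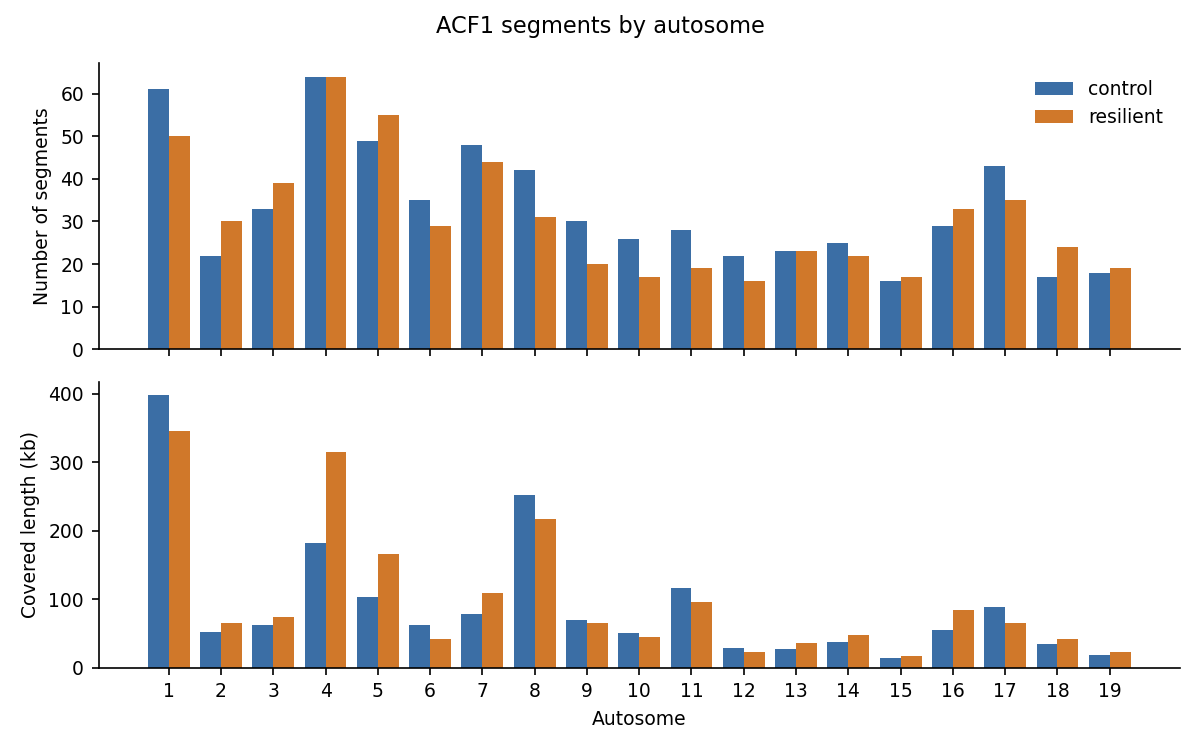
Number of segments (top) and covered length in kb (bottom) on each autosome, with control bars in blue and resilient bars in orange, 1 list per group. Chromosome 4 has equal numbers, 64 and 64, but 182.4 and 314.8 kb; chromosomes 1 and 8 have fewer segments and less covered length in resilient mice.

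The widest unmatched segments were longer in resilient mice. In that list they spanned 15400 bp on chromosome 5 from 95205401 to 95220800, 13600 bp on chromosome 14 from 44012801 to 44026400 over 1700001F09Rik, and 11400 bp on chromosome 4 from 145147401 to 145158800. Next were 10600 bp on chromosome 7 from 46568201 to 46578800 and 10000 bp on chromosome 4 from 146335001 to 146345000. All of these 5 overlapped a susceptible segment. Inside Gm6902, chromosome 7 carried a resilient segment 8000 bp wide (23587201 to 23595200) that had no counterpart in the control or the susceptible list, and its nearest control segment was 3969.2 kb away. The others of the 10 widest were 7400 bp at 34544201 of chromosome 7, 7200 bp inside Nlgn1, 7000 bp at 15037201 of chromosome 5 and 6600 bp at 86766801 of chromosome 2.

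Among control segments without a resilient match, 1 reached 10 kb: 10800 bp on chromosome 4 from 146600801 to 146611600, inside Gm13152. It was followed by 9200 bp on chromosome 8 from 74324201 to 74333400, 6000 bp on chromosome 1 from 87344601 to 87350600, 5600 bp on chromosome 7 from 46582201 to 46587800 and 5400 bp on chromosome 1 from 85059801 to 85065200. These 5 also overlapped a susceptible segment. A further segment of 5400 bp on chromosome 1, from 162084201 to 162089600, did not, and stood 11198.2 kb from the nearest resilient segment. The rest of the 10 widest were 5000 bp over Gm7609, 5000 bp at 39226801 of chromosome 7, 4400 bp at 20232401 of chromosome 12 and 4200 bp at 63626001 of chromosome 2. The unmatched segments of 5600 bp in controls and 10600 bp in resilient mice on chromosome 7 were 3.4 kb apart, so that the same neighbourhood was covered in both.

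Genes were read from the bounds in the authors' H3 tables, which name a gene only where a selected H3 position lies in or near it. This gave 7788 autosomal genes, of which 179 (2.30%) held a segment in either list. Both lists covered 69 of them (0.886%), the resilient list alone 37 (0.475%) and the control list alone 73 (0.937%). The numbers of genes covered in 1 list were thus further apart than the numbers of unmatched segments, 333 and 378. Unmatched control segments lay over a named gene in 76 cases (20.1%) and unmatched resilient segments in 46 (13.8%), against 26.5% and 25.2% of the matched ones. The susceptible list covered 66 of the 69 shared genes (95.7%), 9 of the 37 resilient-list genes (24.3%) and 14 of the 73 control-list genes (19.2%). The 69 shared genes formed 57 separate loci, since genes such as those of the Ugt1a family overlap. In 60 of the 69, at least 1 base was covered in both lists; the other 9, the 8 Ugt1a genes and D130009I18Rik, were covered by segments that did not overlap each other. Genes of 1 list were long, with a median of 95.05 kb in the resilient and 122.5 kb in the control list against 57.9 kb for the shared genes and 35.2 kb for all 7788. Of those found in RefSeq, 33 of 37, 72 of 73 and, for the shared genes, 58 of 66 were protein-coding.

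**Figure D4:**
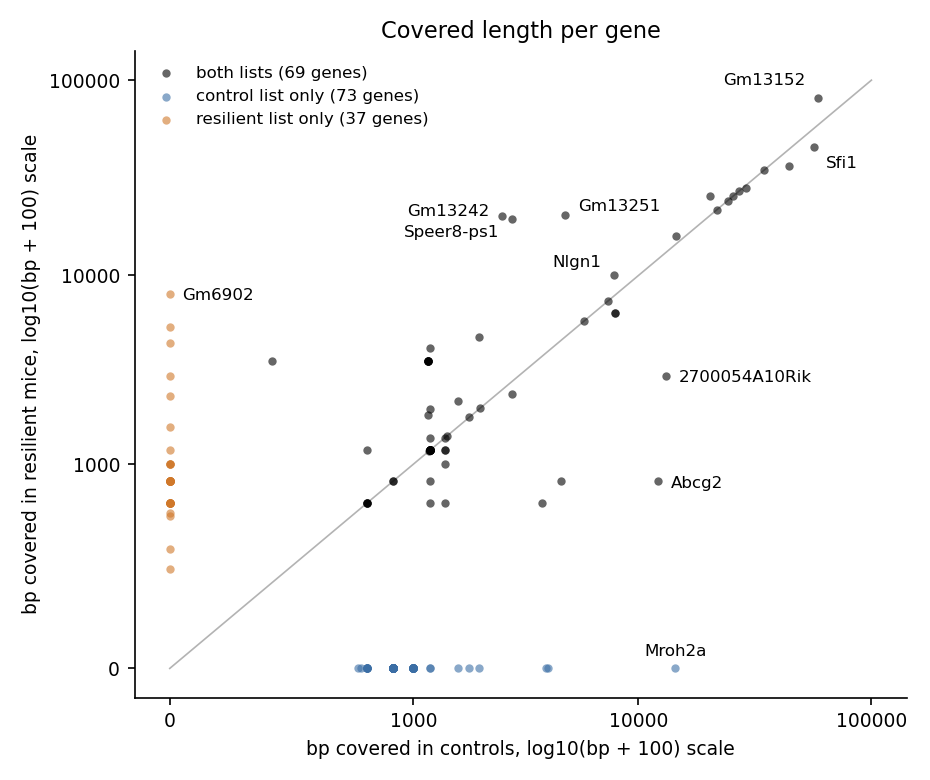
Each point is 1 of the 179 genes with a segment, placed by the bp covered in controls (x) and in resilient mice (y), both on a log10(bp + 100) scale; the line marks equal coverage. Gm13251, Gm13242 and Speer8-ps1 lie above the line, and Abcg2, 2700054A10Rik and Sfi1 below it; genes of 1 list sit on the axes, mostly at or under 1000 bp.

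In 16 of the 69 shared genes, both lists covered at least 5 kb. These included Sfi1 with 56614 bp in controls and 45466 bp in resilient mice, 2610005L07Rik with 34633 and 34600 bp, 6820431F20Rik with 29123 and 28245 bp, Gm15319 with 25539 bp in both and A530032D15Rik with 21715 bp in both. Next to Sfi1, the phosphatidylserine decarboxylase pseudogenes Pisd-ps1 and Pisd-ps3 were covered over 7924 and 7916 bp in controls and over 6377 and 6371 bp in resilient mice. Pisd-ps1 and Pisd-ps3 take up nearly the same bases, and 6820431F20Rik lies inside 2610005L07Rik, so these genes count the same coverage again. Pisd-ps2 on chromosome 17 had 7383 bp in both. The ribosomal RNA precursor Rn45s was covered whole, at 5833 bp, in both lists, and so was Dux, the early embryonic transcription factor gene of a repeat array, at 2025 bp. In 30 others the list with the greater coverage held 600 to 1400 bp, and 23 genes lay in neither set. Named after their values were seen, Chl1 and Mdga2, which encode neural cell adhesion proteins, the inhibitory synapse scaffold gene Gphn and the kinase gene Camk1d held 1 segment each at the same length in both lists, 1200 bp or, for Mdga2, 1400 bp. In all, 31 shared genes had equal coverage, 17 more in controls and 21 more in resilient mice.

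Genes covered in the resilient list alone were led by Gm6902 with 8000 bp, 1700001F09Rik with 5428 bp and Speer7-ps1 with 4473 bp. The zinc finger gene Zfp735 followed with 3000 bp and Vmn2r37 with 2344 bp. Others were 2410141K09Rik with 1600 bp, 0610012H03Rik with 1200 bp, and the cell polarity gene Pard3b, the desmosomal gene Pkp1 and the DNA repair helicase gene Zranb3 with 1000 bp each. Tph2, which encodes the serotonin-producing enzyme of neurons, also had 1000 bp and is named after its value was seen. The susceptible list covered 1700001F09Rik over 5428 bp, 0610012H03Rik over 3000 bp and Speer7-ps1 over 1873 bp, and none of the other genes named here. Only Gm6902, 1700001F09Rik and Speer7-ps1 passed 4000 bp, and the median over the 37 genes was 800 bp.

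Genes covered in the control list alone were led by Mroh2a with 14406 bp, 5031410I06Rik with 4054 bp and Gm7609 with 3952 bp. Mroh2a was covered over all of its 35270 bp in susceptible mice. Then came the lipid kinase gene Pip5k1b with 2000 bp, Sbno2 with 1800 bp and Nlrp4c with 1600 bp. Dlgap2, a scaffold gene of excitatory synapses, and Shisa6, whose product binds AMPA receptors, held 1200 bp each. The nuclear receptor gene Esrrg and the calcium channel subunit gene Cacnb2 held 1000 bp each. Besides Mroh2a, the susceptible list covered 5031410I06Rik over 3654 bp, Gm7609 over 1615 bp and Dlgap2 over 1200 bp, and none of the other genes named so far in this paragraph. The median over the 73 genes was again 800 bp. In 72 of the 73 genes an unmatched segment lay in the gene, the other being 5031410I06Rik, whose segment of 5800 bp had a resilient match of 600 bp outside the gene. Differences within shared genes could be larger than most of these: Zscan5b held 4600 bp in controls and 800 bp in resilient mice, and Tmcc1 3800 and 600 bp. In the other direction Spag17, a gene of ciliary axonemes, held 1200 and 4200 bp, and the glucuronosyltransferase gene Ugt1a6b 173 and 3600 bp.

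In the 13 lists of cell type markers and of genes for synapses, adhesion, channels, remodellers, stress and early response, 7 of the 97 genes with bounds (7.22%) held a segment in either list, against 2.30% of all named genes. The adhesion list had the share of 15%. The 7 genes were 135640 to 1097438 bp long, against a median of 35.2 kb over all named genes. Gene length was not allowed for, so the shares cannot be compared as they stand. Among medium spiny neuron genes, the identity genes of the main accumbens cell type, 0 of 5 with bounds held a segment, and the count was also 0 for astrocyte genes (of 2), oligodendrocyte genes (of 2), microglial genes (of 4) and cortical excitatory neuron genes (of 4). Of 6 endothelial genes, Tek, the angiopoietin receptor gene, held 1000 bp in controls alone. GABA receptor genes (0 of 6), stress signalling genes (0 of 6) and immediate early genes (0 of 2) held none. Of 21 glutamate receptor and synapse genes, Nlgn1, a postsynaptic adhesion gene, was covered in both lists. Its control segment of 7800 bp from 25448801 to 25456600 of chromosome 3 had a resilient match of 2800 bp, and the resilient list added the separate segment of 7200 bp from 25416201 to 25423400, giving 7800 and 10000 bp in all.

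In the remaining lists the covered genes held 600 or 800 bp each. Of 20 adhesion and axon guidance genes, the netrin receptor gene Dcc and the neurexin-related gene Cntnap5a held 800 bp each in the resilient but not the control list. Dcc also held 1000 bp in the susceptible list. Lsamp held 600 bp in controls alone. Of 11 ion channel genes, Kcnip4, which encodes a potassium channel regulator, held 800 bp in resilient mice alone. Of 8 chromatin remodeller genes, Baz2b, a relative of the ACF1 gene, held 800 bp in controls alone. All 4 genes of the list for Sfi1 and the Pisd pseudogenes, 2 of 3 nuclear body genes and the 1 ribosomal RNA gene with bounds were covered in both; these lists had been drawn up knowing that segments lay there.

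The start of 26 genes lay inside a segment, with overlapping genes such as Pisd-ps1 and Pisd-ps3 counted each. In 14 genes it was covered in both lists, among them Sfi1, Sp110, Sp140, C130026I21Rik, A530032D15Rik, Rn45s, Dux, Gm4981 and the 3 Pisd pseudogenes. In 7 it was covered in the control but not the resilient list: 2610005L07Rik, 6820431F20Rik, 5031410I06Rik, Gm1966, Gm7609, Ikbke and Mroh2a. In 5 it was covered in the resilient but not the control list: 1700001F09Rik, 4931408C20Rik, Speer7-ps1, Ugt1a1 and Vmn2r37. The susceptible list covered 2610005L07Rik, 6820431F20Rik, Mroh2a and 1700001F09Rik over their whole length. It also held part of 5031410I06Rik, Gm7609, Speer7-ps1 and Ugt1a1. At Ikbke the control segment covered 540 bp, and at 4931408C20Rik the resilient segment covered 305 bp, neither with a susceptible counterpart in the gene. Ikbke and 4931408C20Rik are thus genes whose promoter, as printed, held no long run shared with another promoter.

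Histone H3 occupancy, measured in separate libraries, was read at the same segments. For the resilient to control comparison, the authors' deposited table held 17434 autosomal positions selected as Up or Down, of which 10760 (61.7%) were Down. Down was taken to mean lower in resilient mice, from the order of the groups in the table's name; with the opposite reading each direction turns round. Inside matched control segments lay 141 positions, 127 of them Down (90.1%), and inside matched resilient segments 120, of which 106 were Down (88.3%). These are largely the same positions, because the segments overlap. Unmatched control segments held 13 Down and 2 Up positions, and unmatched resilient segments 7 Down and 7 Up. Positions were also dense at matched segments, at 108 per Mb in the control and 89.6 per Mb in the resilient list, against 35.1 and 25.9 per Mb at unmatched segments and 7.05 per Mb over the autosomes. Of the matched control segments 43 (17.0%) held a position, and of the unmatched ones 15 (3.97%). These 2 shares do not allow for the greater width of matched segments. ACF1 and H3 tables share the labelled groups and both depend on read mapping, whose part in this was not tested.

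A few loci supplied many of the Down positions. Over the joined extent of both lists, 43 matched groups held 153 positions, 136 of them Down, and 5 groups held 61 (39.9%). C130026I21Rik held 15 Down and 2 Up, the wider Sfi1 segment 16 Down and 1 Up, and the segment over Sp110 and Sp140 9 Down and 1 Up. Rn45s held 9 Down and no Up, and the segment over the Ugt1a genes and Mroh2a 8 Down and no Up. Down positions were not limited to them: 29 groups held Down positions only, 5 Up only and 9 both. Without the segments over Sfi1, Gm13152, Sp110 or Sp140, 88.9% of the positions in matched control segments were Down. That set is not the 5 fullest groups: C130026I21Rik, Rn45s and the segment over the Ugt1a genes and Mroh2a stayed in. The joined resilient segment at Gm13251 held 6 Down and 1 Up, although ACF1 coverage was greater there in resilient mice. At Rn45s and at C130026I21Rik, by comparison, coverage was equal (6600 bp segments) or greater in resilient mice, also with Down positions in excess. At the wider Sfi1 segment the table of susceptible against control, which shares the control group, held 22 Up and 5 Down, and that of resilient against susceptible 0 Up and 25 Down. Over all matched control segments there was no such Up excess in susceptible mice: susceptible against control held 71 Up and 128 Down, and resilient against susceptible 17 Up and 102 Down. Up and Down were not counted over all autosomal positions for these comparisons. Whether the numbers differ from that background was thus not tested. At C130026I21Rik susceptible against control held 5 Up and 23 Down.

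H3 positions were also counted over whole genes, each position once. The genes covered in both lists held 118 Down and 28 Up positions, those of the control list alone 70 Down and 34 Up, and those of the resilient list alone 18 Down and 20 Up. Over all named autosomal genes 63.5% of 5384 positions were Down. Mroh2a, covered in the control but not the resilient list, held 13 Down and no Up positions, and Gm13152 held 26 Down and 3 Up. Nucleosome shifts, listed by the authors in a further table, also lay at matched segments: of 591 autosomal shifts in resilient against control, 66 were inside 29 matched control segments and 60 inside 24 matched resilient segments. Unmatched segments held 2 in controls and 4 in resilient mice. The wider Sfi1 segment alone held 14 shifts, and the C130026I21Rik group 7.

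**Figure D5:**
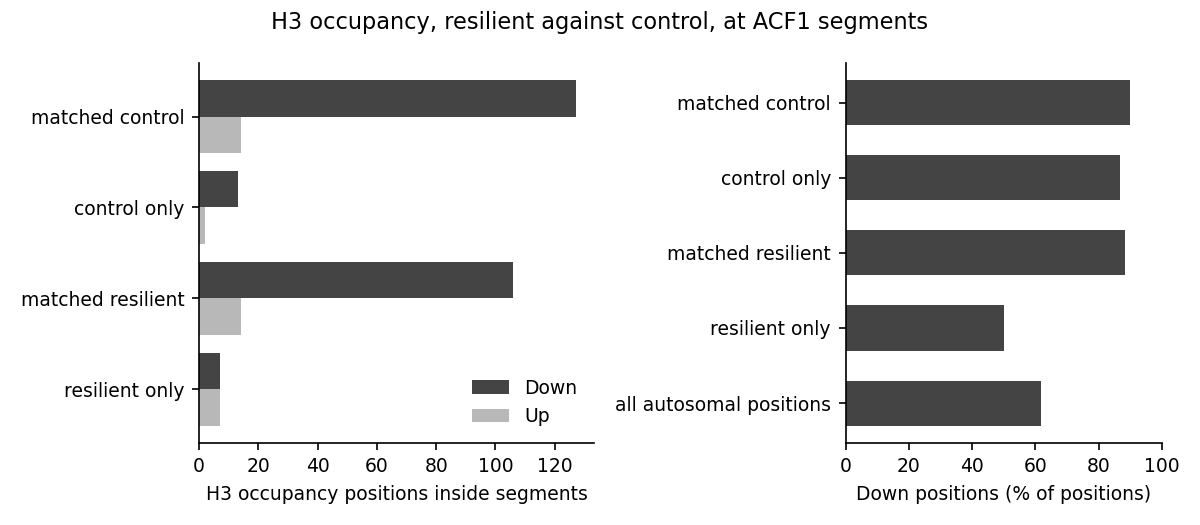
Left, number of H3 occupancy positions of the resilient against control table inside each class of segment, dark for Down and light for Up; right, Down positions as a percentage of all positions in the class, beside all autosomal positions. Matched segments hold 127 and 106 Down positions, against 13 and 7 in unmatched segments. The Down share is 90.1% in matched control segments, while unmatched resilient ones have 7 of 14 positions Down.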

How the data were processed

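ACF1 immunoprecipitates were analysed as deposited: per the file headers and contents, each group's file divides every chromosome into 2 states at a step of 200 bp and gives no score. CASAVA 1.8.2 and the build mm9 are named in the submitters' processing notes; for the segmentation program and the H3 caller, the sources used here name none. Libraries had 19 PCR cycles for ACF1 and 15 for H3, per the labels. Autosomal E2 segments were matched at an overlap of at least 1 bp. Genes were the merged bounds in the 6 deposited H3 tables, with their first coordinate read as 0-based; 7750 of 7788 were found in RefSeq by accession or symbol. Named genes were those with the most covered bp, the largest differences in each direction, the most bp in 1 list, and every listed gene covered; regions were the widest unmatched, split, joined and matched ones. The overlap code was checked on simulated segments and recovered each planted match, split and gene. Members and lists were chosen with earlier results of these data known. Alternatives were other overlap rules, width limits, gene bounds and chromosomes. SNF2H and input libraries were not analysed here. Python 3.11.15, numpy 2.4.6, scipy 1.17.1 and matplotlib 3.10.9 were used.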

Additional observations from a re-analysis of the deposited data

Results flagged for a closer look

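The sex chromosomes, left out of the comparison, held more segments in the resilient than in the control list. Chromosome X had 101 segments in resilient and 93 in control mice, covering 669 kb and 602.2 kb. Chromosome Y had 26 and 23, covering 295.8 kb and 272.4 kb. Matching was more frequent there than on the autosomes, with 78 of 93 control segments (83.9%) matched on X and 22 of 23 (95.7%) on Y. With 1 list per group these differences have no test.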

How the results depend on the processing

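No paired analysis was possible because each group had 1 deposited list and no result comes from a test. Of 86 alternative values for 16 results, 63 stayed within 1.5 times the count, the same median, or the 95% exact binomial interval of the share over segments. The other 23 moved, and none reversed, although a count or a share has no sign to reverse. The interval treats the segments of 1 list as independent. Some alternatives changed little by design: a limit of 600 bp left 629 control and 583 resilient segments. The tally is thus no measure of stability between mice. With the sex chromosomes included, controls covered 2608 kb and resilient mice 2845.4 kb, the median width differed by 200 bp, 47.3% and 49.3% of segments matched, 7 resilient segments joined control ones, and 79.0% of H3 positions in matched segments were Down. With segments under 10 kb only, the lists covered 895.4 and 950.8 kb, 35.2% and 38.4% matched, 0 were split and 0 joined, and 43 genes were shared. Under a reciprocal overlap of 50%, 30.1% and 32.4% matched, 0 were split and 0 joined, as that rule leaves at most 1 partner for most segments. Without chromosome 4, 2 resilient segments joined control ones. Requiring 1000 bp of a gene gave 13 genes in the resilient list alone and 34 in the control list alone. With gene bounds from the resilient against control tables only, 42 genes were shared and 19 were in the resilient list alone. The H3 and susceptible-list alternatives were chosen after seeing the data. Depth is unknown, so a missing narrow segment cannot be told from a shallower library.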

Other observations

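Gene families not among the lists above, picked by name after the coverage was seen, were reached to different degrees. All 8 Ugt1a genes with bounds were covered in both lists, but by segments that did not overlap each other, at 90115401 to 90136600 of chromosome 1 in controls and at 90106801 to 90110400 in resilient mice. The 8 genes overlap each other, so they count the same segments again. Of the 8, Ugt1a2, Ugt1a5, Ugt1a6a, Ugt1a7c, Ugt1a9 and Ugt1a10 held 1177 bp in controls and 3600 bp in resilient mice each. Of 96 vomeronasal receptor genes, which encode pheromone receptors, 6 (6.25%) held a segment, 2 in the resilient list alone, 4 in the control list alone and 0 in both. Of 179 olfactory receptor genes, 0 held one, and of 99 genes with a Zfp symbol 3 did. The Zfp count goes by the older symbols. It leaves out Gm13152, Gm13251 and Gm13242, now named Zfp982, Zfp992 and Zfp980, which held segments in both lists. Speer genes held segments in 2 of 6 and Nlrp genes in 2 of 16, against 2.30% of all named genes. Gene length was not allowed for, so the shares of these families cannot be compared as they stand.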
